A study of Homo sapiens with 4 samples.

Results

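Aminoacyl-tRNA synthetases join each amino acid to its transfer RNA, the step that gives the genetic code its meaning at the ribosome. Human cells keep separate sets for the cytosol and for the mitochondrion, both encoded in the nucleus, and several of the cytosolic enzymes are held together with scaffold proteins in a multi-synthetase complex. Transcription of many cytosolic synthetase genes is known to answer to ATF4, the transcription factor of the amino acid response, which is translated when amino acids run short or when proteins misfold.

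The synthetase genes were chosen by gene symbol, with no measured value in the rule, although earlier results of these data were known. Of the 13036 genes in the data 40 met the rule. These 40 comprised 21 cytosolic enzymes or subunits, 17 mitochondrial enzymes (symbols ending in 2) and 2 scaffold proteins without enzyme activity, AIMP1 and AIMP2. TARSL2, a threonyl-tRNA synthetase-like enzyme, and AIMP2 also end in 2 and were not counted as mitochondrial. GARS and KARS were counted as cytosolic, although each of these genes also makes the mitochondrial form of its enzyme. The symbols are those of the files, and the current symbols of the cytosolic enzymes mostly carry an added 1, as in AARS1.

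The cells were HCCLM3, a human hepatoma line, infected with a lentivirus that carried either a control short hairpin RNA (shCtrl, 2 libraries) or a hairpin against KIAA1429 (shKIAA1429, 2 libraries). KIAA1429, listed under its symbol VIRMA, is a scaffold of the complex that writes N6-methyladenosine on RNA. Both groups came from 1 line carrying a hairpin vector, the knockdown rested on 1 hairpin, and no age, dose or time was given. Nothing in the labels says that the libraries of a group came from separate cultures, so p-values measure only the spread between these libraries. Of 8 hepatocyte markers 1 was among the genes listed, SERPINA1 at 3.34 to 5.63 FPKM, and the other markers, ALB and AFP included, were not. The epithelial keratin genes KRT8 and KRT18 were at 971 to 1176 FPKM, the epithelial EPCAM and CDH1 were not listed, and 0 of 5 blood and 0 of 3 endothelial markers were listed. The fibroblast markers were all 5 listed, led by COL3A1 at 55.8 to 63.6 FPKM, and the summed level of these markers of another cell type was between 71.9 and 79.6 FPKM in the 4 libraries.

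Every level is an FPKM, the fragments of a transcript per unit of its length and of the mapped total, summed over the listed transcripts of a gene. Because FPKM is scaled to length, levels of different genes can be set side by side. In bulk RNA, fewer cells of a kind and less RNA per cell cannot be told apart. Depth per library is unknown, so no counting error could be attached. All 40 genes were above the filter of 1 FPKM in at least 2 libraries, among 11657 genes tested. VIRMA was at 9.37 and 14.1 FPKM in the pair of shCtrl libraries, against 6.90 and 8.52 FPKM in the pair with shKIAA1429. The means were 11.8 ± 3.37 and 7.71 ± 1.15 FPKM (SD, n = 2), and the groups did not overlap. Its log2 fold change was -0.53 (SE 0.24), and limma gave an unadjusted p of 0.078 and an adjusted p-value of 0.917, so VIRMA was not called. The exact two-sided permutation test gave p = 0.333, the smallest that 2 against 2 samples allow.

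Since several cytosolic genes differed between libraries in the same way, the stretch around their transcription starts was searched for the letters TGATGNAA on both strands. These letters are the core of the C/EBP-ATF response element, through which ATF4 is known to act. RefSeq promoter windows on GRCh38.p14, from 250 bases before to 50 bases after a start, were found for 32 of the 40 genes by their current symbols. The letters occurred in 8 of the 32, of which 7 of 16 were cytosolic and 1 of 14 mitochondrial, against 4.46% of all genes with a window and 3.62% of all windows. The search was made after the values were seen, and a match is a description of letters, not of a bound site. The 30 bases around each match are printed in the direction of transcription, with the match in capitals, because these are the genes described further on by their differences between replicates. Where the capitals read TTNCATCA, the match was on the opposite strand.

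AARS, chr16:70289675-70289704, minus strand: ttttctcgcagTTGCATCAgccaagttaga
CARS, chr11:3057407-3057436, minus strand: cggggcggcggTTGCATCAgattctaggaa
GARS, chr7:30594834-30594863, plus strand: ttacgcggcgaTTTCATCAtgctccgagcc
IARS, chr9:92293692-92293721, minus strand: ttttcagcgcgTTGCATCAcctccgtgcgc
MARS, chr12:57488053-57488082, plus strand: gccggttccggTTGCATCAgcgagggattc
NARS, chr18:57621804-57621833, minus strand: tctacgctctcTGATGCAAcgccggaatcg
TARS, chr5:33440956-33440985, plus strand: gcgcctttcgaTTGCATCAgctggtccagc
YARS2, chr12:32756076-32756105, minus strand: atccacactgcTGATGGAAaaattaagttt

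Counted from the start, with the first transcribed base as 1, the match began at base -2 in CARS, -4 in MARS, -13 in IARS, -33 in GARS, 3 in TARS and 15 in NARS. In AARS and YARS2 it lay farther upstream, at -187 and -197. CARS, GARS and TARS have a second window in the table, and the letters were not in it. YARS, DARS, LARS, VARS and TARSL2 among the cytosolic genes, and AARS2 and VARS2 among the mitochondrial genes, were among those without a window.

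The cytosolic enzymes were the more abundant set in these cells. Summed over the 21 genes, they were at 1039 and 839 FPKM in the pair of shCtrl libraries, against 1126 and 929 FPKM in the pair with shKIAA1429, which was 0.224 to 0.288% of all FPKM in a library. The 17 mitochondrial enzymes summed to 188 and 185 FPKM in shCtrl and to 195 and 200.4 FPKM in shKIAA1429, or 0.0495 to 0.0524%. Replicate 1 was the higher library of each group for the cytosolic sum, whereas the mitochondrial sums had no such order. The median gene of the cytosolic set had a mean of 31.4 FPKM, and that of the mitochondrial set 10.1 FPKM.

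**Figure D1:**
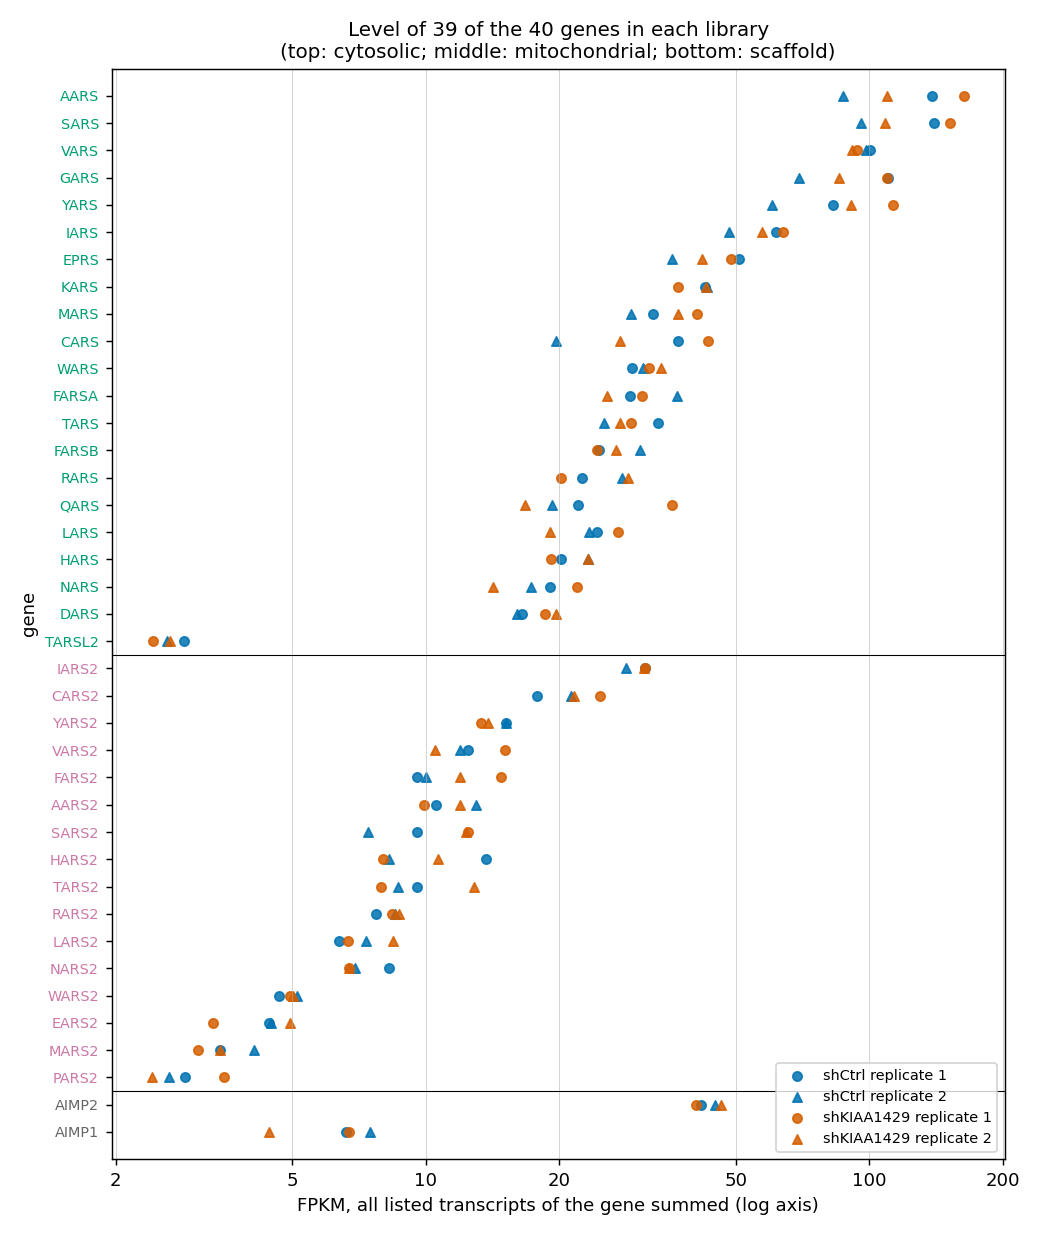
Level of 39 of the 40 genes in the 4 libraries, as FPKM on a log axis; circles are replicate 1 and triangles replicate 2, blue is shCtrl and orange shKIAA1429. Cytosolic genes reach higher levels than mitochondrial genes, and in AARS, SARS, GARS, YARS and CARS both circles lie to the right of the triangle of the same colour.

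AARS, which charges alanine, and SARS, which charges serine, were the most abundant members. AARS (chromosome 16, 70286198 to 70323446 on GRCh37) was at 138 and 87.1 FPKM in the pair of shCtrl libraries, against 163 and 109 FPKM in the pair with shKIAA1429. SARS (chromosome 1, 109756540 to 109780791) was at 140 and 95.6 FPKM with shCtrl versus 151 and 108 FPKM with shKIAA1429. For both genes the 2 libraries numbered 1 stood above the 2 numbered 2, and the groups overlapped. VARS, the valyl enzyme, came next and differed in this respect, at 100.4 and 98.4 FPKM in shCtrl and 93.5 and 91.2 FPKM in shKIAA1429. Below them came the glycyl enzyme GARS with a mean of 93.7 FPKM, the tyrosyl enzyme YARS with 86.6 FPKM and the isoleucyl enzyme IARS with 57.7 FPKM. TARSL2, at 2.43 to 2.85 FPKM, was the least abundant cytosolic member, and the next above it was DARS, the aspartyl enzyme, with a mean of 17.7 FPKM.

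Among the more abundant mitochondrial enzymes were IARS2 and CARS2. IARS2 was at 31.1 and 28.2 FPKM in shCtrl, against 31.1 and 31.0 FPKM in shKIAA1429. CARS2 was at 17.8 and 21.2 FPKM with shCtrl versus 24.7 and 21.5 FPKM with shKIAA1429, below IARS2 in every library. At the lower end were the glutamyl enzyme EARS2, with a mean of 4.29 FPKM, the methionyl enzyme MARS2 with 3.51 FPKM and the prolyl enzyme PARS2 with 2.86 FPKM. The last of these ranged from 2.42 to 3.51 FPKM, so MARS2 and PARS2 also overlapped.

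The contrast between the compartments was then drawn amino acid by amino acid. Of 13 amino acids compared, each with 1 cytosolic and 1 mitochondrial gene, the cytosolic gene was the higher in all 4 libraries for 12. The median ratio of the means was 3.25, and the highest was 11.9, for SARS over SARS2. These ratios take all listed transcripts, and the coding share of SARS was 77.1 to 82.9%, against 100% for SARS2, AARS and AARS2. The place of SARS above AARS in this order therefore depends on counting noncoding transcripts. For cysteine the order changed between libraries, from a CARS to CARS2 ratio of 0.927 in shCtrl replicate 2 to 2.08 in shCtrl replicate 1. Near the other end, AARS exceeded AARS2, which was at 10.6 and 13.0 FPKM in shCtrl, against 9.88 and 11.9 FPKM in shKIAA1429, by between 6.71 and 16.5 times and MARS exceeded MARS2 by between 7.09 and 13.3 times. EPRS, a single cytosolic protein that charges both glutamate and proline, was 10.3 times as abundant as EARS2 and 15.5 times as abundant as PARS2. Of the subunits of the cytosolic phenylalanyl enzyme, FARSA had a mean of 30.5 FPKM and FARSB of 26.5 FPKM, against 11.6 FPKM for the mitochondrial FARS2. These ratios are descriptions, since genes are not replicates.

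**Figure D2:**
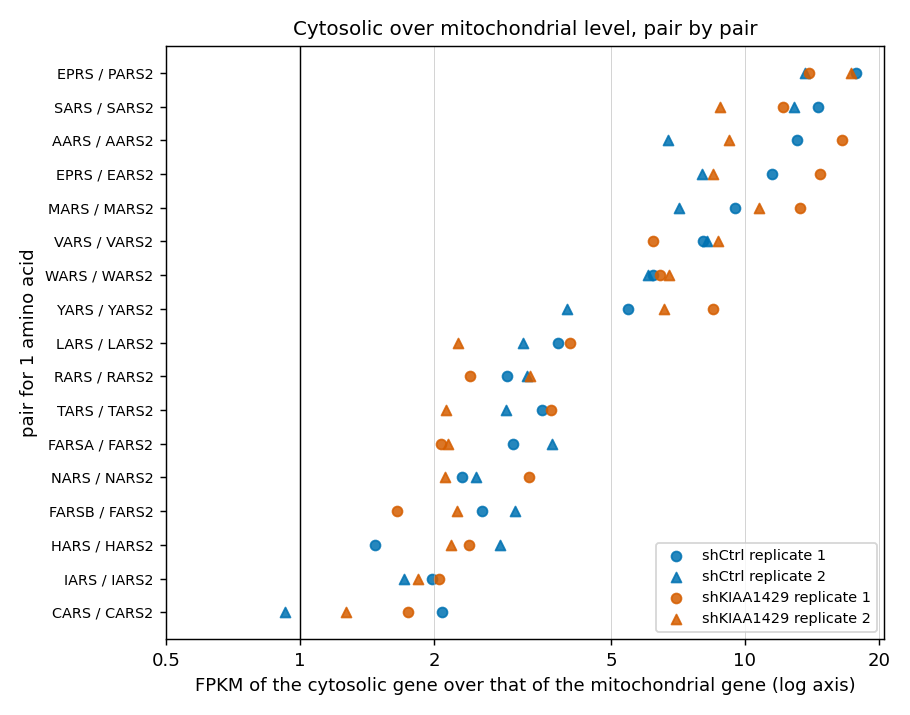
FPKM of the cytosolic gene divided by that of the mitochondrial gene for the same amino acid, on a log axis, in each of the 4 libraries; the line marks equal levels. CARS over CARS2 lies on both sides of the line, from 0.927 to 2.08, and SARS over SARS2 lies between 8.80 and 14.6.

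To see whether knockdown of KIAA1429 changed these genes, the members were read from the test over all genes. At limma thresholds of 0.05 for the adjusted p-value and of 1 for the size of the log2 fold change, 0 of the 40 were called, where 0% of all genes tested were. The lowest adjusted p-value of a member by limma was 0.872. At an unadjusted p under 0.05 there was 1 of 40, against 5.63% of all genes. The log2 fold changes (shKIAA1429 over shCtrl, on log2(FPKM + 1)) lay between -0.31 and 0.52, so that 0 of 40 exceeded 1 in size, as 1.07% of all genes tested did. Their median was 0.08 for the cytosolic and 0.06 for the mitochondrial enzymes, beside -0.01 over all genes tested. Above 0 were 11 of 21 cytosolic and 11 of 17 mitochondrial genes, where 48.1% of all genes were above 0. The log2 ratio of the summed cytosolic to the summed mitochondrial level was 2.47 and 2.18 with shCtrl versus 2.53 and 2.21 with shKIAA1429. It therefore differed more between the replicates of a group than between the groups.

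**Figure D3:**
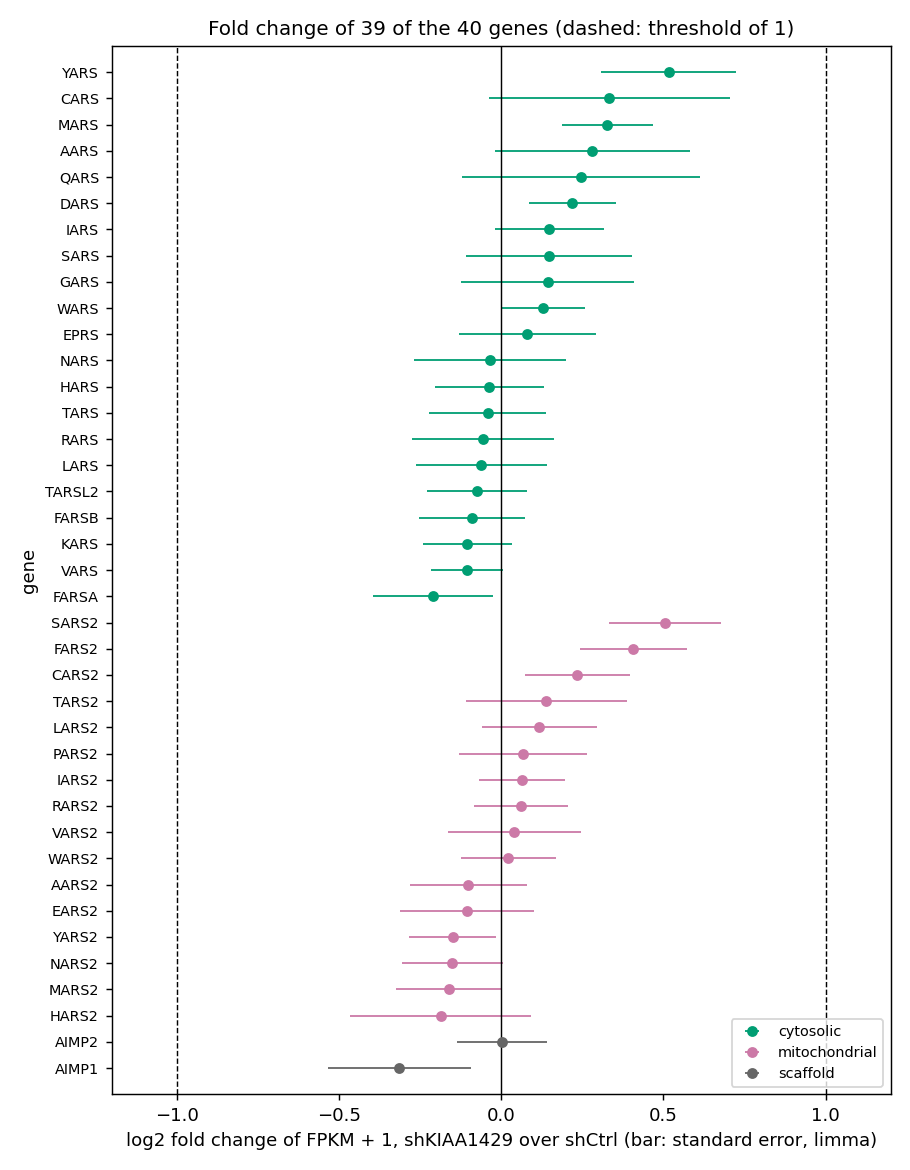
Log2 fold change of 39 of the 40 genes, shKIAA1429 over shCtrl, with its standard error from limma; green is cytosolic, pink mitochondrial and grey scaffold, and the dashed lines mark the threshold of 1. The points lie between -0.31 and 0.52, and none reaches a dashed line.

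In 7 of the 40 genes both shKIAA1429 values lay above both shCtrl values, an arrangement found in 16.9% of all genes tested, and in 3 they lay below, found in 16.7% of all genes. The 7 were YARS, MARS, DARS and WARS of the cytosol and SARS2, FARS2 and CARS2 of the mitochondrion, and the 3 were VARS, NARS2 and YARS2. In coding transcripts alone the groups overlapped for YARS and MARS.

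YARS, which charges tyrosine, had the largest positive value. It was at 82.5 and 60.2 FPKM in the pair of shCtrl libraries, against 113 and 91.0 FPKM in the pair with shKIAA1429 (log2 fold change 0.52, SE 0.21), and limma gave an adjusted p-value of 0.895. Its groups did not overlap in the sum over all transcripts, whereas they did in the transcript that codes for the enzyme. The only coding transcript, YARS-201 with its 13 exons, lay at 56.4 and 41.4 FPKM with shCtrl versus 73.5 and 53.3 FPKM with shKIAA1429, where the groups overlapped. YARS-209, a noncoding transcript of 2 exons at the 3′ end of the gene, was at 5.87 and 2.67 FPKM in shCtrl, against 13.3 and 12.6 FPKM in shKIAA1429. The share of the coding transcript in the gene was 68.4 and 68.8% in shCtrl and 65.2 and 58.5% in shKIAA1429. Its mitochondrial partner YARS2 had the opposite sign, at 15.2 and 15.2 FPKM in shCtrl against 13.3 and 13.8 FPKM in shKIAA1429 (log2 fold change -0.15, SE 0.13).

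SARS2, the mitochondrial seryl enzyme, was the member with an unadjusted p under 0.05. It was at 9.55 and 7.41 FPKM with shCtrl versus 12.4 and 12.3 FPKM with shKIAA1429, with means of 8.48 ± 1.51 and 12.4 ± 0.083 FPKM (SD, n = 2). On the log2 scale the change was 0.51 (SE 0.17), and limma gave an adjusted p-value of 0.872. SARS2 (chromosome 19, 39405906 to 39421536) overlaps MRPS12 on the opposite strand, and reads of the overlap could not be assigned here, since the use of strand is not stated. The cytosolic SARS had a log2 fold change of 0.15 (SE 0.26).

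FARS2 and MARS followed. FARS2, the mitochondrial phenylalanyl enzyme, was at 9.56 and 9.998 FPKM in shCtrl, against 14.8 and 11.9 FPKM in shKIAA1429 (log2 fold change 0.41, SE 0.16). The subunits of the cytosolic enzyme had the other sign: FARSA was at 28.8 and 36.9 FPKM with shCtrl versus 30.6 and 25.7 FPKM with shKIAA1429 (log2 fold change -0.21, SE 0.19), and FARSB was at 24.5 and 30.3 FPKM against 24.3 and 26.9 FPKM (log2 fold change -0.09, SE 0.16). The ratio of FARSA to FARS2 was 3.01 and 3.69 in shCtrl and 2.07 and 2.15 in shKIAA1429, and the ratio of FARSB to FARS2 was 2.56 and 3.03 against 1.65 and 2.25. For both ratios, which share FARS2, the groups did not overlap. The same held for YARS over YARS2, MARS over MARS2 and WARS over WARS2, higher in shKIAA1429, and for SARS over SARS2, lower in shKIAA1429. In every other pair compared the groups overlapped. Of all single genes tested, 16.9% had both shKIAA1429 values above both shCtrl values and 16.7% had them below. The share among ratios of other genes was not computed, and neither were ratios of coding transcripts alone. The ratios were read off after the values were seen, so no test is given.

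MARS, which charges methionine on initiator and elongator transfer RNA, was at 32.6 and 29.0 FPKM in shCtrl, against 40.8 and 36.96 FPKM in shKIAA1429. Its log2 fold change was 0.33 (SE 0.14), and limma gave an adjusted p-value of 0.901. MARS (chromosome 12, 57881740 to 57910438) overlaps DDIT3, the stress response gene on the opposite strand from 57910371 to 57914300, at its 3′ end, and DDIT3 differed widely between the libraries, as given with the amino acid response. The share of MARS in its coding transcripts was 91.1 and 79.9% in shCtrl and 88.9 and 79.4% in shKIAA1429. In coding transcripts alone MARS was at 29.6 and 23.2 FPKM in shCtrl, against 36.3 and 29.4 FPKM in shKIAA1429. There the groups overlapped. MARS2 was at 3.43 and 4.09 FPKM with shCtrl versus 3.07 and 3.43 FPKM with shKIAA1429 (log2 fold change -0.16, SE 0.16). The log2 fold change of CARS, the cysteinyl enzyme, was 0.33 with an SE of 0.37, and its groups overlapped.

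The other members without overlap differed by little. DARS was at 16.5 and 16.1 FPKM with shCtrl versus 18.6 and 19.6 FPKM with shKIAA1429 (log2 fold change 0.22, SE 0.13). WARS, the tryptophanyl enzyme and a gene known to be induced by interferon, was at 29.1 and 30.9 FPKM in shCtrl, against 31.9 and 33.9 FPKM in shKIAA1429 (log2 fold change 0.13, SE 0.13). VARS had a log2 fold change of -0.11 (SE 0.11), and its mitochondrial partner VARS2 was at 12.5 and 11.96 FPKM with shCtrl versus 15.0 and 10.5 FPKM with shKIAA1429. NARS2, the mitochondrial asparaginyl enzyme, was at 8.24 and 6.92 FPKM in shCtrl, against 6.71 and 6.71 FPKM in shKIAA1429 (log2 fold change -0.15, SE 0.16). Its cytosolic partner NARS was at 19.0 and 17.2 FPKM with shCtrl versus 21.9 and 14.2 FPKM with shKIAA1429, where the groups overlapped.

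Besides MARS2, the largest negative values belonged to AIMP1, FARSA and HARS2, and in each the groups overlapped. AIMP1, a scaffold that binds transfer RNA, was at 6.59 and 7.49 FPKM in shCtrl, against 6.70 and 4.43 FPKM in shKIAA1429 (log2 fold change -0.31, SE 0.22). Replicate 2 of shKIAA1429 was the lowest library, and without it the value was -0.061. That of FARSA was -0.036 without shCtrl replicate 2. AIMP2, the scaffold on which the complex is assembled, was at 41.7 and 44.9 FPKM with shCtrl versus 40.7 and 46.2 FPKM with shKIAA1429, and was more abundant than AIMP1 in every library. HARS2, the mitochondrial histidyl enzyme, was at 13.6 and 8.26 FPKM in shCtrl, against 7.99 and 10.6 FPKM in shKIAA1429 (log2 fold change -0.19, SE 0.28). HARS and HARS2 lie head to head on chromosome 5 and overlap from 140071011 to 140071609, and HARS was at 20.1 and 23.3 FPKM in shCtrl and 19.1 and 23.2 FPKM in shKIAA1429.

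For the cytosolic sum the replicates of a group differed more than the group means did, and the genes behind this shared a pattern that was noticed after the values were seen. In AARS, SARS, GARS, YARS and CARS, replicate 1 was over 1.2 times replicate 2 in both shCtrl and shKIAA1429. That made 5 of all 40 members, where 10.3% of all genes tested did so. By set it was 5 of 21 cytosolic and 0 of 17 mitochondrial genes. The reverse, with replicate 2 over 1.2 times replicate 1 in both groups, held for 1 cytosolic gene (RARS) and 1 mitochondrial gene (AARS2), where 11.2% of all genes did so. No label says that the replicate number marks a shared batch or day, and the pattern was not tested.

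Of these 5, CARS showed the widest gap, at 37.1 and 19.7 FPKM with shCtrl versus 43.2 and 27.3 FPKM with shKIAA1429, so that replicate 1 was 1.89 and 1.58 times replicate 2. GARS was at 110 and 69.4 FPKM in shCtrl, against 109.8 and 85.2 FPKM in shKIAA1429, or 1.59 and 1.29 times. In AARS the ratios were 1.59 and 1.49, in SARS 1.46 and 1.40, and in YARS 1.37 and 1.24. EPRS, at 50.9 and 35.8 FPKM with shCtrl versus 48.8 and 41.9 FPKM with shKIAA1429, and IARS, at 61.5 and 48.2 FPKM against 63.9 and 57.2 FPKM, had the same order with smaller gaps in shKIAA1429. RARS, the arginyl enzyme, ran the other way, at 22.5 and 27.6 FPKM in shCtrl, against 20.2 and 28.5 FPKM in shKIAA1429. KARS, the lysyl enzyme, was also lower in replicate 1, at 42.5 and 43.0 FPKM in shCtrl and 37.004 and 42.7 FPKM in shKIAA1429.

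The 7 cytosolic genes with the letters TGATGNAA near their start, printed above, all had a higher level in replicate 1 of both groups. This order held in 13 of all 21 cytosolic genes, in 3 of the 5 cytosolic genes without a window, and in 31.6% of all genes tested. Summed, the 7 genes with a match were at 432 and 296 FPKM in the pair of shCtrl libraries, against 472 and 358 FPKM in the pair with shKIAA1429. Their median difference, replicate 1 minus replicate 2 on log2(FPKM + 1), was 0.39 in shCtrl and 0.36 in shKIAA1429. For the 9 cytosolic genes with a window and no match it was -0.08 and -0.09, with 3 of the 9 (EPRS, QARS and SARS) higher in replicate 1 of both groups. Across the 14 mitochondrial genes with a window it was -0.01 and -0.03, and over all genes tested -0.00054 and -0.02. The range of the 7 was 0.14 to 0.88 in shCtrl and 0.09 to 0.64 in shKIAA1429, with MARS and NARS lowest in shCtrl and TARS lowest in shKIAA1429. YARS2, the mitochondrial gene with a match, was nearly equal in the replicates of each group. These are values of 4 libraries, with no test, and say nothing of whether a factor was bound.

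**Figure D4:**
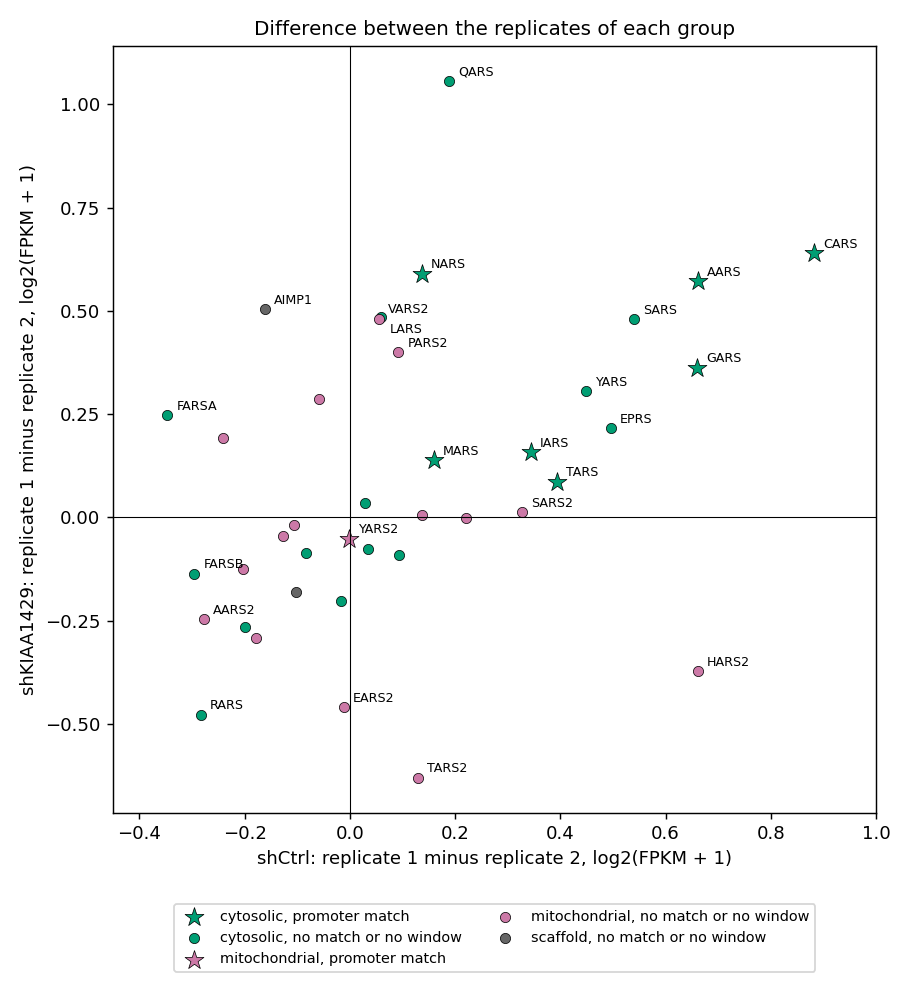
Replicate 1 minus replicate 2 on log2(FPKM + 1) for 39 of the 40 genes, in shCtrl on the horizontal axis and in shKIAA1429 on the vertical axis; stars mark genes with TGATGNAA in a promoter window, green is cytosolic, pink mitochondrial and grey scaffold. The 7 green stars all lie to the upper right, from 0.14 to 0.88 and from 0.09 to 0.64, while the pink star (YARS2) lies near 0.

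A list of 24 genes of the amino acid response, of which 23 were tested, differed between the same libraries. The list was chosen with earlier results of these data known, so its pattern is a description and no separate evidence. The list comprised ATF4, stress regulators such as DDIT3 and TRIB3, and genes of amino acid synthesis and uptake. It summed to 1709 and 1057 FPKM with shCtrl versus 1770 and 1305 FPKM with shKIAA1429. In 20 of the 23 genes replicate 1 was above replicate 2 in both groups, where 31.6% of all genes were. In 14 it was over 1.2 times as high in both groups, where 10.3% of all genes were. DDIT3, a transcription factor induced by stress, was at 50.6 and 8.67 FPKM with shCtrl versus 38.6 and 14.5 FPKM with shKIAA1429. ASNS, which makes asparagine, was at 67.8 and 27.2 FPKM in shCtrl, against 91.9 and 41.7 FPKM in shKIAA1429. ATF4 itself was at 234 and 120 FPKM with shCtrl versus 260 and 183 FPKM with shKIAA1429. Replicate 2 of shCtrl was the lowest library for DDIT3, ASNS and ATF4. Between the groups, 0 of the 23 were called and 0 reached an unadjusted p under 0.05, the median log2 fold change was 0.15 beside -0.01 over all genes tested, and the lowest limma adjusted p-value was 0.897. The largest changes in size were those of DDIT4 (0.77, SE 0.75), SHMT2 (0.52, SE 0.35) and ASNS (0.51, SE 0.56). The part of this response in the levels of the synthetase genes was not tested.

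**Figure D5:**
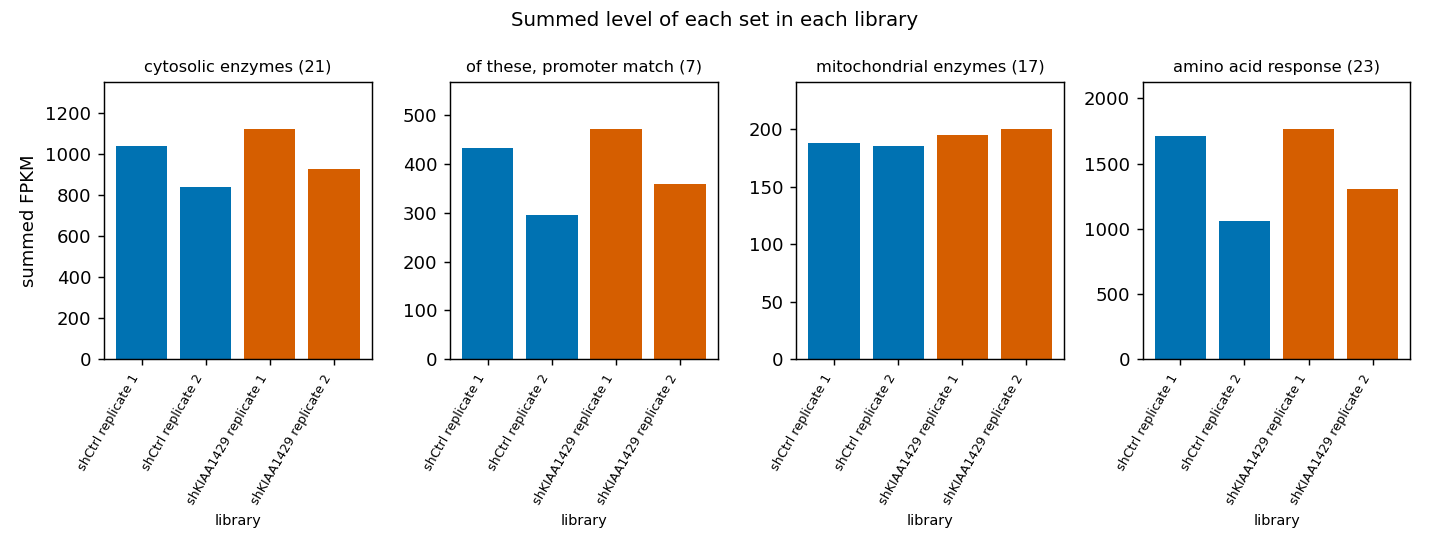
Summed FPKM in each of the 4 libraries for the 21 cytosolic enzymes, the 7 of them with a promoter match, the 17 mitochondrial enzymes and the 23 tested genes of the amino acid response; every axis starts at 0. Replicate 1 is the higher library of each group in all panels but that of the mitochondrial enzymes, which lie between 185 and 200.4 FPKM.

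A second list held 24 further genes that handle transfer RNA or take part in charging, such as editing enzymes, the mitochondrial amidotransferase subunits and the splicing endonuclease. All 24 were tested, 0 were called and 0 reached an unadjusted p under 0.05, with 7 positive and 17 negative log2 fold changes, a median of -0.07 and a lowest limma adjusted p-value of 0.941. The largest change was that of AARSD1, an editing protein related to AARS, at 1.99 with an SE of 1.06. It rested on shKIAA1429 replicate 2, at 21.6 FPKM, against 2.92 and 0.202 FPKM in shCtrl and 2.28 FPKM in shKIAA1429 replicate 1. Next in size were TSEN34 (0.35, SE 0.34) and PPA2 (0.27, SE 0.15). Replicate 1 was above replicate 2 in both groups in 6 of the 24 genes, and below it in 9, where 31.6% of all genes were above and 34.9% below.

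The multi-synthetase complex has 11 components in the list used, the 8 enzyme genes EPRS, IARS, LARS, QARS, MARS, KARS, RARS and DARS with AIMP1, AIMP2 and EEF1E1. EEF1E1 was at 14.8 and 17.9 FPKM in shCtrl, against 13.5 and 16.5 FPKM in shKIAA1429. The 11 summed to 336 and 313 FPKM in shCtrl and to 353 and 330 FPKM in shKIAA1429, with a median log2 fold change of 0.00 and 0 genes past both thresholds or with an unadjusted p under 0.05. Replicate 1 was above replicate 2 in both groups in 5 of the 11, where 31.6% of all genes were. It was over 1.2 times as high in 0, where 10.3% of all genes were. The synthetases fall into classes I and II by the fold of their catalytic domain. The median log2 fold change was 0.07 for the 19 genes of class I and 0.02 for the 20 of class II, EPRS being in both.

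Of the 40 genes, 10 overlap another listed gene on the opposite strand, and reads of an overlap may be counted for either; besides those given above these include YARS with S100PBP, WARS with WDR25, AIMP1 with TBCK, AIMP2 with EIF2AK1 and EARS2 with UBFD1.

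The transcripts of a gene did not always keep their order between libraries. Of the 27 members with at least 2 listed transcripts, 18 had the same most abundant transcript in all 4 libraries and 9 did not. In QARS, SARS2, NARS2 and WARS the most abundant transcript was one in both libraries numbered 1 and another in both numbered 2. For NARS2 this rested on a near tie in shKIAA1429 replicate 1, with NARS2-204 at 3.37 FPKM and NARS2-201 at 3.34 FPKM. How often such changes of order occur among all genes was not counted, so they are not shown to be particular to the members. QARS, the glutaminyl enzyme, was the clearest. QARS-209, which has 23 exons, lay at 14.1 and 5.47 FPKM with shCtrl versus 25.3 and 0.140 FPKM with shKIAA1429. QARS-201, which has 24 exons, lay at 4.54 and 9.08 FPKM in shCtrl, against 0.0533 and 12.6 FPKM in shKIAA1429. The summed QARS level was 22.0 and 19.2 FPKM in shCtrl and 35.9 and 16.7 FPKM in shKIAA1429, so the high value of shKIAA1429 replicate 1 lay mostly in QARS-209. In the annotation 2301 of the 2362 exonic bases of QARS-209 also belong to QARS-201, so few bases tell them apart.

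SARS2 was alike. SARS2-202 was at 6.06 and 0 FPKM with shCtrl versus 9.12 and 0.519 FPKM with shKIAA1429, and SARS2-201 at 2.79 and 6.70 FPKM in shCtrl, against 3.31 and 11.6 FPKM in shKIAA1429. Of the 1886 exonic bases of SARS2-202, 1880 are shared with SARS2-201. In LARS, the leucyl enzyme, shCtrl replicate 2 stood alone. LARS-212 was listed at 0 FPKM there and at 18.2, 21.3 and 11.5 FPKM in shCtrl replicate 1 and shKIAA1429 replicates 1 and 2, while LARS-216 was at 12.1 FPKM there and at no more than 0.200 FPKM in the others. The summed level of LARS, 24.3 and 23.3 FPKM in shCtrl and 27.1 and 19.1 FPKM in shKIAA1429, did not show this exchange.

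HARS2 was the member whose most abundant transcript by group sum differed between shCtrl and shKIAA1429. HARS2-206 was at 9.91 and 1.63 FPKM with shCtrl versus 0 and 3.14 FPKM with shKIAA1429, and HARS2-201 at 3.74 and 6.62 FPKM against 7.99 and 7.50 FPKM. All 1562 exonic bases of HARS2-206 belong to HARS2-201 as well, and the difference rested on shCtrl replicate 1. HARS2-201 runs to 140078876, into ZMAT2, which lies on the same strand from 140078265, whereas HARS2-206 ends at 140078213. Reads of that overlap may be counted for either gene.

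When each transcript was tested by itself, 0 of the 103 tested transcripts of the members were called, where 0% of the 24996 tested were, and 2 had an unadjusted p under 0.05, against 6.28% of all. One was YARS-209, given above, with a log2 fold change of 1.47 (SE 0.37) and a limma adjusted p-value of 0.565. The other was CARS-201, a coding transcript with 22 exons. It was at 5.44 and 4.98 FPKM in shCtrl, against 1.74 and 2.69 FPKM in shKIAA1429 (log2 fold change -0.96, SE 0.24), and limma gave an adjusted p-value of 0.566. The most abundant coding transcript of the gene, CARS-214, was at 16.0 and 7.27 FPKM with shCtrl versus 24.6 and 10.2 FPKM with shKIAA1429, and was likewise higher in replicate 1 of both groups.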

How the data were processed

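RNA of 4 HCCLM3 libraries was sequenced by the authors, 2 shCtrl and 2 shKIAA1429, grouped by title. The deposited values are FPKM per transcript, per the file headers. The tool that made them is not stated, and the methods of the study describe gene counts, which were not used here. The submitters' processing notes name hg19 and Bowtie2 2.1.0. The files listed 38510 transcripts, each above 0.5 FPKM in at least 1 library. FPKM were summed per gene over all listed transcripts, coding or not: 103 of the 140 member transcripts were coding. Genes at 1 FPKM or more in at least 2 libraries were kept, and log2(FPKM + 1) was compared with limma 3.58.1 in R 4.3.3 (eBayes with trend, two-sided, group only), with Benjamini-Hochberg adjustment over all genes. No count test was run on FPKM. The fit was run on simulated data with noise independent between libraries and planted changes larger than that of any member. That run says nothing of changes as small as those of the members.

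How strand and reads with several matches were handled is not stated, so the 10 members that overlap another listed gene, and genes with close copies, remain uncertain. Symbols of 108 transcripts had become dates in some files and were taken from the others. The members and lists were chosen with earlier results of these data known. The single values of 1 member, counted in the sets and sums, are not reported here. Values by library were given for the 3 most abundant members of each enzyme set, both scaffolds, the 5 largest changes in each direction, members with an unadjusted p under 0.05, their partners for the same amino acid, and at most 3 further genes per list by size of change. Other members, transcripts of QARS, SARS2 and LARS, and ATF4, DDIT3 and EEF1E1 were given after their values were seen. Alternatives were upper quartile scaling, other filters, a pseudocount of 0.1, the replicate block, coding transcripts alone, either threshold alone, KARS and GARS left out, and leaving out each library. Adding 1 to FPKM before taking log2 understates changes of low genes. Exon numbers are from GENCODE 44 on GRCh37.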

Additional observations from a re-analysis of the deposited data

How the results depend on the processing

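The same count of 0 synthetase genes past both thresholds was obtained under upper quartile scaling, without a filter, with a filter of 1 FPKM in every library, with a pseudocount of 0.1, with coding transcripts alone, and with either threshold alone. Over all genes the count was likewise 0 under each of these settings, except for 125 with the absolute log2 fold change over 1 alone. Apart from that setting, the count of 0 is therefore not particular to the members. Of 234 values of 39 members under the settings that keep all 4 libraries, 0 had the opposite sign. Many of these values could not turn, however. The other filters and the replicate block leave a log2 fold change as it is by construction. Coding transcripts alone do the same for members with no noncoding transcript. The counts at 2 libraries a group and unknown depth do not show that levels were equal.

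The replicate numbers do not stand for a stated batch. Deviations from the group means, compared between the libraries numbered 1, correlated at 0.32 across all genes and 0.41 across the members. With 2 libraries a group, those numbered 2 give the same value by construction. With the number as a replicate block, 0 genes and 0 synthetase genes passed both thresholds, and VIRMA was at -0.53 with a limma adjusted p-value of 0.42. The numbers were not taken as a pairing.

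Leaving out 1 library at a time leaves a group with a lone library, assumed to vary like the other group. The count over all genes was then 0 to 1 (1 without shCtrl replicate 1), and that over the members 0. VIRMA ranged from -0.80 to -0.26. The median of the cytosolic enzymes ranged from -0.05 to 0.18, that of the mitochondrial enzymes from -0.03 to 0.06, and the log2 ratio of the sums, shKIAA1429 minus shCtrl, from -0.11 to 0.21. The sign held in 15 members and turned in 24, none of them called. Where it held, the positive values were those of SARS2 (0.34 to 0.67), YARS (0.29 to 0.74), FARS2 (0.26 to 0.55), MARS (0.25 to 0.41), CARS2 (0.11 to 0.36), DARS (0.18 to 0.26) and WARS (0.086 to 0.17). The negative values were those of AIMP1 (-0.56 to -0.061), FARSA (-0.38 to -0.036), MARS2 (-0.26 to -0.060), NARS2 (-0.26 to -0.039), KARS (-0.20 to -0.0028), TARSL2 (-0.12 to -0.026), VARS (-0.12 to -0.087) and YARS2 (-0.18 to -0.12). Those that turned ran, by log2 fold change, in the cytosolic set, from -0.049 to 0.61 in AARS, -0.11 to 0.77 in CARS, -0.17 to 0.33 in EPRS, -0.24 to 0.058 in FARSB, -0.19 to 0.47 in GARS, -0.17 to 0.098 in HARS, -0.023 to 0.32 in IARS, -0.30 to 0.18 in LARS, -0.33 to 0.26 in NARS, -0.28 to 0.77 in QARS, -0.29 to 0.18 in RARS, -0.12 to 0.42 in SARS and -0.24 to 0.16 in TARS. In the mitochondrial set they ran from -0.24 to 0.037 in AARS2, -0.33 to 0.13 in EARS2, -0.52 to 0.14 in HARS2, -0.0027 to 0.13 in IARS2, -0.029 to 0.26 in LARS2, -0.13 to 0.27 in PARS2, -0.0012 to 0.13 in RARS2, -0.18 to 0.45 in TARS2, -0.20 to 0.28 in VARS2 and -0.031 to 0.075 in WARS2, and for AIMP2 from -0.087 to 0.093. The cause was not tested.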
